A study of Mus musculus with 8 samples.

Results

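Enzymes that oxidise, hydrolyse or conjugate drugs and steroids were followed at the transcript level in NMuMG, an epithelial cell line from the mouse mammary gland. The genes were those named as cytochromes P450 (Cyp), carboxylesterases (Ces), UDP-glucuronosyltransferases (Ugt), glutathione S-transferases (Gst) or cytosolic sulfotransferases (Sult), with Cyp51 left out, whose mean normalised count over the 8 libraries was at least 10. They numbered 53 of the 133 genes with such names and of the 18102 genes in the table: 23 Cyp, 7 Ugt, 4 Ces, 14 Gst and 5 Sult genes. The other 80 had lower means. Just inside the limit were the pseudogene Cyp4f41-ps with a mean of 10.5 and Cyp3a16 with 10.7, and just outside it were Cyp2c44 with 9.62 and Cyp27b1 with 9.39.

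The 8 libraries form 4 groups of 2, and all cells had been kept without serum for 6 h. Cells labelled as an RREB1 knockout (KO) were given either 100 pM TGFβ for 1.5 h or 2.5 µM SB505124, which blocks the kinase of the TGFβ type I receptor, for 6 h. Wild-type (WT) cells were given the same TGFβ or the same SB505124 treatment. All KO columns carry 1 code, which is taken here to mean 1 clone, so the genotype and the clone cannot be told apart. The SB505124 cells are not untreated cells, so the effects of the ligand, the inhibitor and the time cannot be told apart either.

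Libraries held 25144204 to 32143113 reads, and values are read counts divided by size factors (normalised counts). Rreb1 itself had 2481 and 2241 normalised counts in KO-labelled TGFβ libraries and 1327 and 1343 in KO-labelled SB505124 libraries, against 1959 and 1769 in WT TGFβ libraries and 1055 and 1033 in WT SB505124 libraries. It was thus not lower in the KO-labelled cells, which are called by their label throughout. Whether both replicates of a group came from separate cultures is not in the labels. P-values therefore reflect the spread between these libraries, which may be technical. Among listed markers of luminal mammary epithelium, Krt8 ranged from 59377 to 115829 normalised counts over the 8 libraries. Krt18 and Krt19 were also high, and the adherens junction gene Cdh1 ranged from 13123 to 26362. Epcam was at 0 in all 4 KO-labelled libraries and at 4.01 to 36.6 in the WT libraries. The rest of the list was low or near 0: Gata3 at 13.8 to 34.7, Elf5 at 0 to 3.72, Esr1 at 0 to 1.00 and Prlr at 0 to 0.931. Pgr had no values.

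Metabolism of foreign compounds and steroids is commonly described in phases. Cytochromes P450 and carboxylesterases expose or introduce a reactive group, transferases then attach glucuronic acid, glutathione or sulfate, and carriers export the product. Many of these genes are controlled by ligand-activated factors. The aryl hydrocarbon receptor (AHR) with its partner ARNT binds dioxin response elements and drives Cyp1a1 and Cyp1b1, NRF2 drives glutathione transferases, and nuclear receptors drive the Cyp2c, Cyp3a and Ugt genes. Most of these enzymes are best known from liver and intestine.

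The 250 bases before the transcription start of the CYP1 pair are shown because the 2 genes share a regulator and responded unequally to TGFβ in the data described further on. Capitals mark the dioxin response element core, searched as GCGTG on both strands. In Cyp1a1 it starts 54 bases before the RefSeq transcription start, and in Cyp1b1 it lies on the other strand, printed as CACGC, 76 bases before it. The sequences are RefSeq's, on GRCm38.p6: chr9:57697363-57697612 on the plus strand for Cyp1a1 and chr17:79715062-79715311 on the minus strand for Cyp1b1.
Cyp1a1: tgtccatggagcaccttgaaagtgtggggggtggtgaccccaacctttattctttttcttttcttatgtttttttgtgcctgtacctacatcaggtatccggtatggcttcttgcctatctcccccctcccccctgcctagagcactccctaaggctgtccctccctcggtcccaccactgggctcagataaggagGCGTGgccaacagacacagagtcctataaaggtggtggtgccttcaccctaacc
Cyp1b1: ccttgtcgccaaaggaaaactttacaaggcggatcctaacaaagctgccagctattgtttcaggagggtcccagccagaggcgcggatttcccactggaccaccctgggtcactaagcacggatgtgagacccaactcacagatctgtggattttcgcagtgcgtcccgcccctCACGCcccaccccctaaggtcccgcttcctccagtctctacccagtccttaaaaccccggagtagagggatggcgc
RefSeq promoters of 300 bases (250 before the start and 50 after it) were found for 43 of the 53 genes, with 51 promoters in all. The core was in 14 of these 51 promoters (27.5%), against 28.2% of all 32851 mouse promoters of that length. It and the elements that follow were searched only in the 250 bases before the start. The SMAD element CAGAC was in 51% of the 51 promoters, against 42.2% of all. The antioxidant response element core TGACNNNGC was in 5.88%, against 10.2% of all. These are counts of letters and say nothing about binding.

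The genes differed widely in level, also within a family. Glutathione transferases held both the highest and the lowest mean normalised count per kilobase of exon, 12995 for Gsto1 and 3.10 for Gsta3. Per kilobase of exon, which allows genes to be compared, the most abundant transcripts were glutathione transferases. Gsto1, an omega-class enzyme that reduces dehydroascorbate, ranged from 9089 to 15996 normalised counts per kilobase over the 8 libraries. Gstp1, the pi-class transferase, ranged from 3025 to 5527, although 33.7% of the 50-base windows of its transcripts also occur in another gene. Gsta4, which conjugates the lipid peroxidation product hydroxynonenal, ranged from 707 to 5076. The next were Cyp20a1, a P450 with no settled substrate, with a mean of 904 per kilobase, and Ugt2b34, a glucuronosyltransferase, with a mean of 585.

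TGFβ against SB505124 changed a minority of the enzyme genes, a few of them strongly. In KO-labelled cells 10 of the 53 genes passed an adjusted p of 0.05 in limma, 4 higher and 6 lower under TGFβ. That is 18.9% of them, against 30.9% of all 12498 tested genes (15.1% higher and 15.8% lower). In WT cells 17 passed, 8 higher and 9 lower, which is 32.1%, against 43.3% of all tested genes (20.2% higher and 23.2% lower). Both shares lie below those of all genes, whereas changes of 2-fold or more were not rarer throughout. In KO-labelled cells 2 genes were at least 2-fold higher (3.77%, against 4.3% of all tested genes) and 2 at least 2-fold lower (3.77%, against 1.4%). In WT cells 3 were at least 2-fold higher (5.66%, against 3.64%) and 3 at least 2-fold lower (5.66%, against 2.36%). The median log2 fold change of the 53 genes was 0 in KO-labelled cells and 0.03 in WT cells, beside -0.02 and -0.01 for all genes. By family, the Ugt genes had the lowest medians, -0.54 in KO-labelled cells and -0.69 in WT cells. Both genotypes called Cyp26b1, Cyp21a1, Cyp4f16 and Sult2b1 higher and Cyp1a1, Cyp3a13, Ugt2b34 and Gstcd lower. The 2 comparisons contrast different libraries but take their spread from all 8, so their calls are not independent. The fibroblast markers moved with the treatment as well: 2 of 3 tested were higher under TGFβ in each genotype. Their summed level was 384 to 415 normalised counts under TGFβ in KO-labelled cells, against 46.5 to 61.3 under SB505124, and 514 to 669 in WT cells under TGFβ, against 164. Col1a2, Col3a1, Pdgfrb and Lum, which define fibroblasts, had means under 10, and the part of these markers in the results was not tested. In KO-labelled cells the shared calls are 4 of the 4 higher and 4 of the 6 lower calls. In WT cells they are 4 of the 8 higher and 4 of the 9 lower calls. The share of calls common to both genotypes was not counted over all tested genes.

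**Figure D1:**
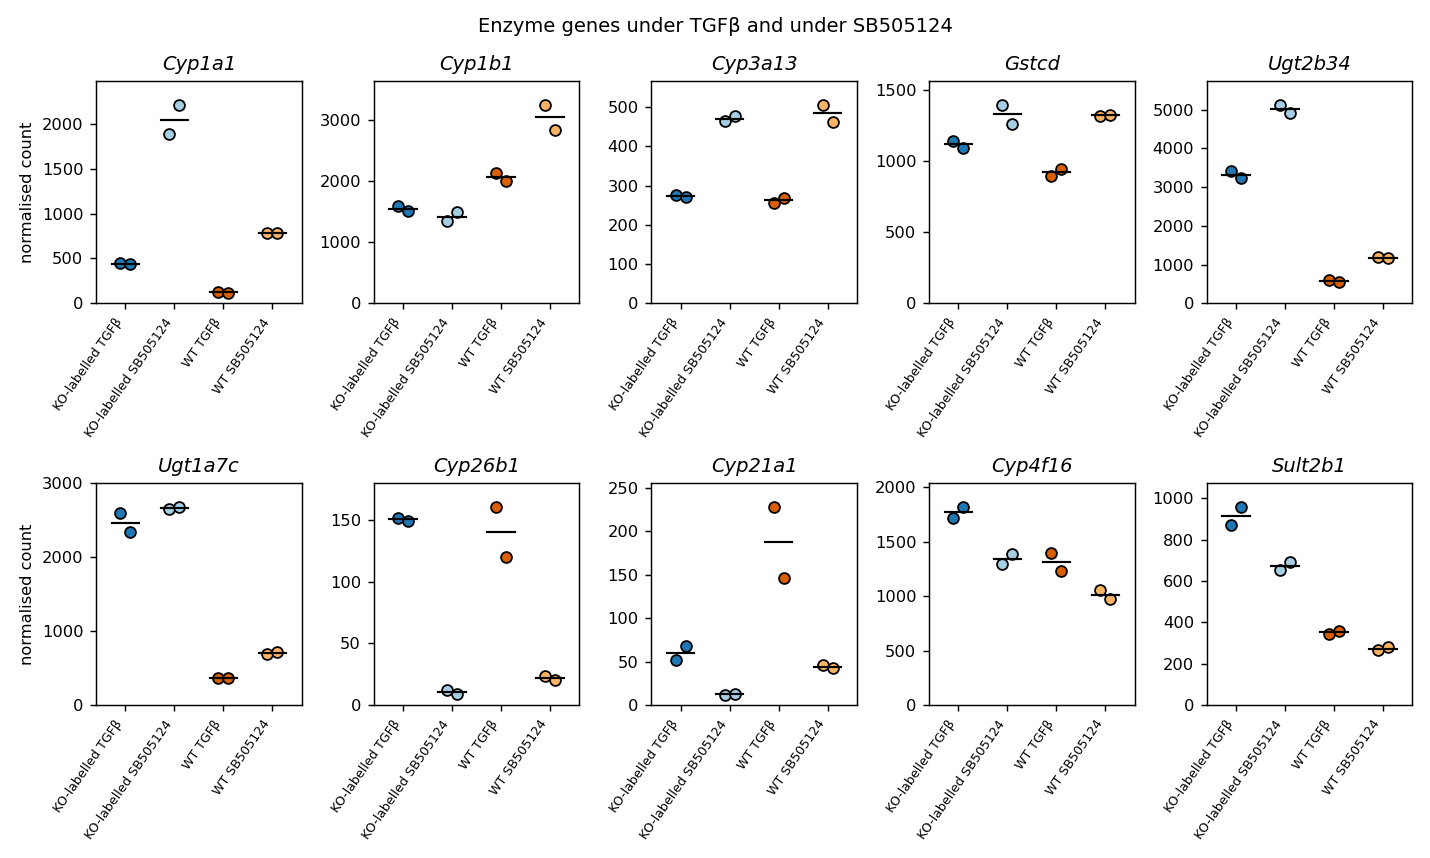
Normalised counts of 10 enzyme genes in the 8 libraries (y axis, linear from 0), by group on the x axis: circles are libraries and horizontal lines are group means (n = 2). Cyp1a1 is lower and Cyp26b1 and Cyp21a1 are higher under TGFβ in both genotypes, whereas Cyp1b1 and Ugt1a7c are lower under TGFβ in WT cells and their responses differ between the genotypes by 0.69 and 0.84 on the log2 scale.

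The largest fall belonged to Cyp1a1, the classical AHR target, which oxidises polycyclic aromatic hydrocarbons and estrogens. In KO-labelled cells it had 446 and 439 normalised counts under TGFβ, against 1886 and 2214 under SB505124. In WT cells it had 126 and 118 under TGFβ, against 785 and 785 under SB505124. Within each genotype both TGFβ libraries lay far below both SB505124 libraries, and the KO-labelled TGFβ libraries lay below the WT SB505124 libraries. The fall was 4.61-fold in KO-labelled cells (log2 fold change -2.21 ± 0.10 SE, limma adjusted p = 4.5e-12) and 6.39-fold in WT cells (-2.68 ± 0.10, 3.8e-13). The difference between these responses was 0.47 ± 0.15 on the log2 scale and missed the threshold (adjusted p = 0.097). Only 3.43% of the 50-base windows of Cyp1a1 also occur in another gene, its neighbour Cyp1a2.

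Cyp1b1, the other member of the CYP1 pair shown above and an estrogen hydroxylase of tissues outside the liver, did not behave alike in the 2 genotypes. It had 1587 and 1511 normalised counts under TGFβ in KO-labelled cells, against 1345 and 1486 under SB505124. WT cells had 2133 and 1993 under TGFβ, against 3246 and 2834 under SB505124. All 4 KO-labelled libraries lay below all 4 WT libraries, and TGFβ lowered the gene in WT cells (-0.56 ± 0.09, adjusted p = 5.7e-05) while the KO-labelled change was 0.13 ± 0.09 (adjusted p = 0.28). The difference of the responses, KO-labelled minus WT, was 0.69 ± 0.12 (limma adjusted p = 0.0032). Without WT SB505124 replicate 1 its adjusted p was 0.0583, and without limma's variance trend it was 0.119. The core GCGTG stands in both promoters printed above, while of the 2 genes Cyp1a1 passed the test in both genotypes and Cyp1b1 in WT cells.

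Around these enzymes, the genes of the AHR axis (13 listed, 8 of them tested outside the families) included 0 higher and 3 lower calls under TGFβ in KO-labelled cells and 0 higher and 4 lower calls in WT cells, with median log2 fold changes of -0.10 and -0.37. The lower calls are 37.5% and 50% of the 8, beside the 15.8% and 23.2% of all tested genes given above. The receptor gene Ahr had 675 and 688 normalised counts under TGFβ in KO-labelled cells, against 1799.9 and 1686 under SB505124. In WT cells Ahr had 1085 and 1116 under TGFβ, against 1795 and 1767 under SB505124. Ahr fell in both genotypes, by 1.35 on the log2 scale in KO-labelled cells (adjusted p = 1.8e-10) and by 0.69 in WT cells (2.2e-06), and the difference of -0.66 ± 0.12 passed the test (adjusted p = 0.0026). Tiparp, an AHR-induced ADP-ribosyltransferase that restrains the receptor, fell by 0.75 in KO-labelled cells and 0.61 in WT cells. Nfe2l2, which encodes NRF2, fell by 0.97 and 0.86. Arnt fell by 0.31 in WT cells (adjusted p = 0.0074) and was among the genes that did not pass in KO-labelled cells.

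The largest rise belonged to Cyp26b1, which hydroxylates and so clears retinoic acid. It had 152 and 149.7 normalised counts under TGFβ in KO-labelled cells, against 12.1 and 8.64 under SB505124. In WT cells it had 161 and 120.0 under TGFβ, against 23.3 and 20.03 under SB505124. The TGFβ libraries of both genotypes reached a like range, and no SB505124 library came near it. The rise was 13.5-fold in KO-labelled cells (3.76 ± 0.24, adjusted p = 4.9e-10) and 6.19-fold in WT cells (2.63 ± 0.24, 9.7e-08). The difference of 1.13 ± 0.34 missed the threshold (adjusted p = 0.09).

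Of 20 tested genes of retinoid and steroid handling outside the families, 5 were higher and 2 lower in KO-labelled cells, and 7 were higher and 4 lower in WT cells (medians 0.13 and 0.15). That is 35% and 55%, beside 30.9% and 43.3% of all tested genes. Rdh10, which oxidises retinol on the way to retinoic acid, rose by 0.59 ± 0.08 in KO-labelled cells and 1.22 ± 0.08 in WT cells, and the difference of -0.62 ± 0.11 passed the test (adjusted p = 0.0038). Dhrs9, another retinol dehydrogenase, fell by 1.23 and 1.65. Among 13 nuclear receptors and related factors, 5 were higher and 2 lower in KO-labelled cells and 6 were higher and 3 lower in WT cells (medians 0.23 and 0.14), which is 53.8% and 69.2%. The retinoic acid receptor gene Rara rose by 1.43 ± 0.10 in KO-labelled cells and 0.93 ± 0.10 in WT cells. The vitamin D receptor gene Vdr rose by 2.43 ± 0.28 and 1.68 ± 0.28. The bile acid receptor gene Nr1h4 fell by 1.03 and 1.05.

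Cyp21a1, the steroid hydroxylase of the adrenal cortex, also rose. It had 52.0 and 67.7 normalised counts under TGFβ in KO-labelled cells, against 11.2 and 13.0 under SB505124, and 228 and 146 under TGFβ in WT cells, against 45.6 and 42.1 under SB505124. The rise was 4.63-fold in KO-labelled cells (adjusted p = 1.2e-06) and 4.10-fold in WT cells (3.4e-06), with the 2 WT TGFβ libraries well apart from each other. This gene is uncertain, because 23.8% of its windows also occur in another gene, mostly the pseudogene Cyp21a2-ps, and its exons overlap Tnxa on the opposite strand, which the library kit does not separate.

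Smaller changes completed the set called in both genotypes. Cyp3a13, a P450 of the CYP3A family of broad drug and steroid oxidases, had 276 and 272 normalised counts under TGFβ in KO-labelled cells, against 463 and 477 under SB505124. Its WT values were 257 and 267 under TGFβ, against 506 and 463 under SB505124. The 2 genotypes were nearly superimposed, and the falls were 0.78 (adjusted p = 1.9e-05) and 0.88 (3.8e-06) on the log2 scale. Cyp3a13 was also one of the genes whose levels ran most like Cyp1a1 over the 8 libraries (Pearson's r on the log2 scale 0.838), after Gstcd (0.918) and before Ugt2b35 (0.812). These correlations describe libraries that share 2 genotypes and 2 treatments. Gstcd, which carries a glutathione transferase-like domain, fell by 0.25 in KO-labelled cells (adjusted p = 0.037) and 0.52 in WT cells (9.5e-05). The KO-labelled call of Gstcd was lost in 8 of 19 alternative analyses, among them those without KO-labelled SB505124 replicate 1 (adjusted p = 0.324), KO-labelled TGFβ replicates 1 (0.0793) or 2 (0.209), or WT SB505124 replicates 1 or 2 (0.0619 each).

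Sult2b1, the cholesterol and hydroxysteroid sulfotransferase, had 871 and 959.5 normalised counts under TGFβ in KO-labelled cells, against 653 and 693 under SB505124, and 344 and 359 in WT cells under TGFβ, against 264 and 282 under SB505124. It rose by 0.44 ± 0.10 (adjusted p = 0.0028) and 0.36 ± 0.10 (0.008), and its exons overlap Lmtk3 on the opposite strand. Its adjusted p was 0.058 in KO-labelled cells without KO-labelled TGFβ replicate 2, and 0.08 in WT cells without WT SB505124 replicate 1. Cyp4f16, of a subfamily that hydroxylates fatty acids and eicosanoids, rose by 0.40 ± 0.09 and 0.37 ± 0.09. Called in KO-labelled cells and not in WT cells were Sult1c2, a cytosolic sulfotransferase, and Ugt2b35. Sult1c2 fell by 0.52 (adjusted p = 0.037), but its adjusted p was 0.375 without KO-labelled SB505124 replicate 1, 0.0753 without KO-labelled TGFβ replicate 1 and 0.172 without KO-labelled TGFβ replicate 2. Ugt2b35 had 17.3 and 20.503 normalised counts under TGFβ in KO-labelled cells, against 44.7 and 43.2 under SB505124, and 4.21 and 5.71 in WT cells under TGFβ, against 7.10 and 9.01 under SB505124. It fell by 1.18 in KO-labelled cells (adjusted p = 0.024), and leaving out any 1 of the 4 KO-labelled libraries gave adjusted p-values of 0.0695 to 0.159. The test of the difference between genotypes did not pass for either gene (adjusted p = 0.74 and 0.64).

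The glucuronosyltransferases, which make lipophilic compounds water soluble, included no higher call under TGFβ. In KO-labelled cells 2 of 7 were lower, and in WT cells 3 of 7, beside 15.8% and 23.2% of all tested genes. Ugt2b34 had 3412 and 3235 normalised counts under TGFβ in KO-labelled cells, against 5125 and 4912 under SB505124. It had 604 and 559 under TGFβ in WT cells, against 1185 and 1161 under SB505124, so that groups were separated by treatment within a genotype and by genotype within a treatment. The falls were 0.59 in KO-labelled cells (adjusted p = 1.1e-05) and 1.01 in WT cells (1.1e-08). Ugt1a6a fell by 0.77 in WT cells (limma adjusted p = 1.6e-04) and had -0.19 ± 0.13 in KO-labelled cells (0.31). The difference between these responses did not pass (0.58 ± 0.19, adjusted p = 0.118). Of the windows of Ugt1a6a, 52.1% also occur in other genes, mostly Ugt1a7c.

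In WT cells, further calls under TGFβ were made for Cyp2s1, Cyp2c70, Ces1g, Gsto2, Gstz1 and Gstm5. Cyp2s1, a P450 of epithelia outside the liver, had 1202 and 1009 normalised counts under TGFβ in WT cells, against 1575 and 1592 under SB505124 (-0.52 ± 0.09, adjusted p = 1.9e-04). Its KO-labelled change was -0.05 ± 0.09 (adjusted p = 0.72), and the difference between these responses, 0.47 ± 0.13, missed the threshold (adjusted p = 0.0628). The difference did not pass for Cyp2c70, Ces1g, Gstz1 or Gstm5 either. Several of these calls rest on few reads or on 1 library. Ces1g had 6 reads in all under TGFβ against 1 under SB505124, a ratio of 6.53 with an exact 95% counting interval of 0.792 to 300, and its call was lost in 4 of 19 alternatives. Cyp2c70 had 3.16 and 1.14 normalised counts under TGFβ, against 5.07 and 6.01 under SB505124, and its call was lost in 5 of 19 alternatives. These were edgeR (adjusted p = 0.161), DESeq2 (0.215), the fit of only the 4 WT libraries (0.179), an added constant of 8 (0.0618) and the fit without WT TGFβ replicate 2 (0.0501), which moved its change to -0.65, against -1.13 with all libraries. Gstm5 (0.32 ± 0.12) had an adjusted p of 0.0943, 0.141 and 0.222 without WT SB505124 replicate 1, WT SB505124 replicate 2 and WT TGFβ replicate 2. Gstz1 (0.37 ± 0.10) had one of 0.0545 without WT SB505124 replicate 2.

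The difference of the TGFβ responses between genotypes passed for 3 of the 53 genes, 2 with a positive and 1 with a negative difference. That is 5.66%, against 2.82% of all tested genes (2.25% positive and 0.568% negative). They were Cyp1b1, described above, Ugt1a7c and Gsto2. Ugt1a7c, a phenol-conjugating enzyme of the Ugt1a locus, had 2589 and 2337 normalised counts under TGFβ in KO-labelled cells, against 2653 and 2683 under SB505124. Its WT values were 361 and 361 under TGFβ, against 688 and 713 under SB505124. All 4 KO-labelled libraries lay above all 4 WT libraries. The treatments did not overlap in either genotype, but the KO-labelled change of -0.12 ± 0.09 did not pass (limma adjusted p = 0.32). The difference was 0.84 ± 0.12 (limma adjusted p = 4.5e-04) and passed in all 18 alternatives in which it could be computed. Of the windows of Ugt1a7c, 53.7% also occur in other Ugt1a genes, which share their last exons, and how such reads were assigned is not given in the sources used here.

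Gsto2, the second omega-class transferase, went the other way. It had 257 and 258 normalised counts under TGFβ in KO-labelled cells, against 299 and 296 under SB505124, and 795 and 919 in WT cells under TGFβ, against 627 and 667 under SB505124. Its rise in WT cells was 0.40 ± 0.11 (adjusted p = 0.0053) and its KO-labelled change -0.21 ± 0.11 (0.15). The difference was -0.61 ± 0.15 (adjusted p = 0.035) and was lost in 9 of 18 alternatives, with adjusted p-values up to 0.199. These include the fits without WT SB505124 replicate 1 (adjusted p = 0.199) or 2 (0.106), WT TGFβ replicate 2 (0.13), KO-labelled SB505124 replicate 1 (0.0552) and KO-labelled TGFβ replicates 1 (0.132) or 2 (0.0671). The WT rise itself had an adjusted p of 0.0639 without WT SB505124 replicate 1 and 0.0759 without WT TGFβ replicate 2.

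**Figure D2:**
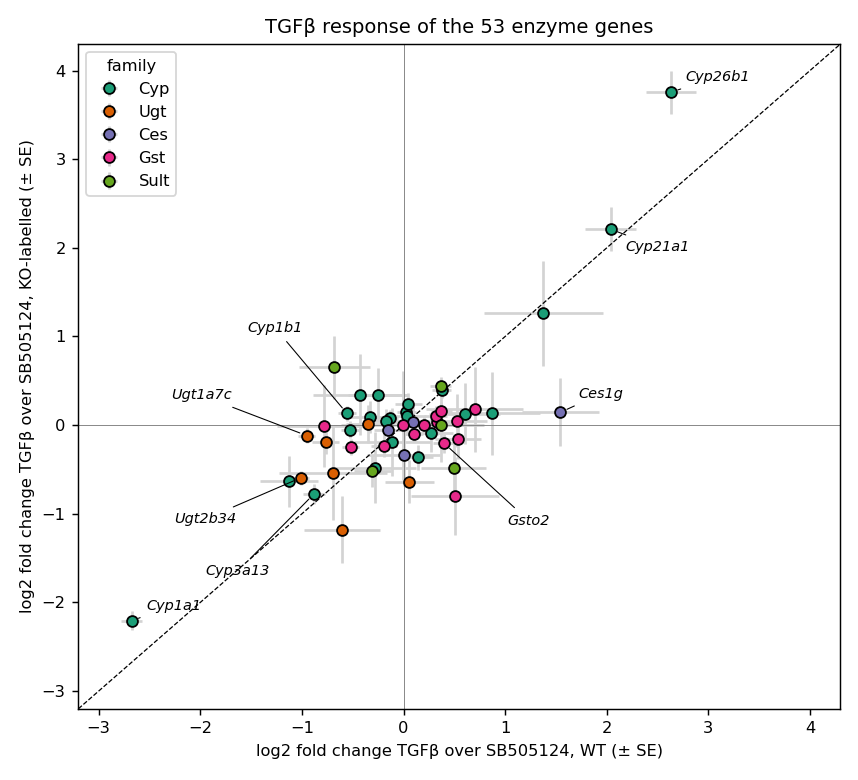
Log2 fold change of TGFβ over SB505124 in KO-labelled cells (y axis) against that in WT cells (x axis) for the 53 enzyme genes, coloured by family, with the model's SE as bars; the dashed line marks equal responses. Cyp1a1 lies low and Cyp26b1 and Cyp21a1 lie high on both axes, while most genes lie near 0.

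Between the genotypes the families differed far more than between the treatments. Under TGFβ, 43 of the 53 genes passed in KO-labelled against WT cells, 33 higher and 10 lower, or 81.1% against 62.9% of all tested genes (32.7% higher and 30.2% lower). Under SB505124, 41 passed, 31 higher and 10 lower, or 77.4% against 56.9% (29.2% higher and 27.7% lower). At 2-fold or more, 22 genes were higher in KO-labelled cells under TGFβ (41.5%, against 8.07% of all tested genes) and 25 under SB505124 (47.2%, against 6.71%). Lower by 2-fold or more were 5 under TGFβ (9.43%, against 8.38%) and 9 under SB505124 (17.0%, against 8.33%). The median log2 fold change of the 53 genes was 0.84 under TGFβ and 0.87 under SB505124, beside 0.01 for all genes in both. It stayed at these values with genes of few reads set to their bounds. That setting could not move the median, because those genes stay on the same side of it. Under both treatments 29 genes were higher, 9 were lower and 0 had opposite calls. This agreement was not counted over all tested genes, so it describes the 53 genes only. Called under neither were 7 genes: Cyp2j6, Cyp2u1, Cyp3a13, Cyp4v3, Cyp4f41-ps, Gsta3 and Gstm2. Cyp2j6, an arachidonic acid epoxygenase, had 684 and 677 normalised counts under TGFβ in KO-labelled cells, against 589 and 639 in WT cells (adjusted p = 0.18).

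Part of this count follows from the way the genes were chosen. Of the 53 genes, 40 reached a mean of 10 in both genotypes, 10 only in KO-labelled cells and 3 only in WT cells. Genes reaching it only in KO-labelled cells made up 18.9% of the 53, against 1.69% of all tested genes, and these 10 had to differ. The 10 are Ces1d, Ces1g, Cyp2c67, Cyp2c70, Cyp2d26, Cyp3a16, Cyp4a12b, Gstm7, Ugt1a1 and Ugt2b35, and the 3 are Cyp4f41-ps, Gstm4 and Sult4a1. The genotypes also differ in markers of other cell types. Of 5 tested hepatocyte markers, 4 were higher and 1 lower in KO-labelled cells under each treatment. The summed level of the 6 listed was 3242 to 3379 normalised counts in KO-labelled TGFβ libraries and 2971 to 3015 in KO-labelled SB505124 libraries, against 598 to 634 and 571 to 607 in the WT libraries. Serpina1a carried most of the rise, while Alb, the defining hepatocyte product, was at 1.73 to 5.78 in KO-labelled libraries against 33.4 to 44.6 in WT libraries and Cyp3a11 was near 0 in all. Of 3 tested fibroblast markers, 0 were higher and 2 lower under each treatment. Dcn was at 0 to 0.864 normalised counts in KO-labelled libraries, against 38.9 to 94.1 in WT libraries. Of the basal keratins, Krt5 was at 56.8 to 82.1 in KO-labelled libraries, against 0 to 3.43 in WT libraries, and Krt14 was at 0 in all KO-labelled libraries, against 3.00 to 46.3 in WT libraries. Their summed levels with the other basal markers were 75.1 to 89.2 in KO-labelled TGFβ libraries and 68.9 to 93.3 in KO-labelled SB505124 libraries, against 59.4 to 63.2 and 21.3 to 26.03 in the WT libraries. The endothelial marker Cdh5 was lower, at 0.931 to 8.66 in KO-labelled libraries, against 9.12 to 27.4 in WT libraries. Of the 7 leukocyte markers, 4 were tested, with 1 higher and 1 lower. Their part in the result was not tested. In bulk RNA a change in the number of cells of one kind and a change in RNA per cell cannot be told apart.

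**Figure D3:**
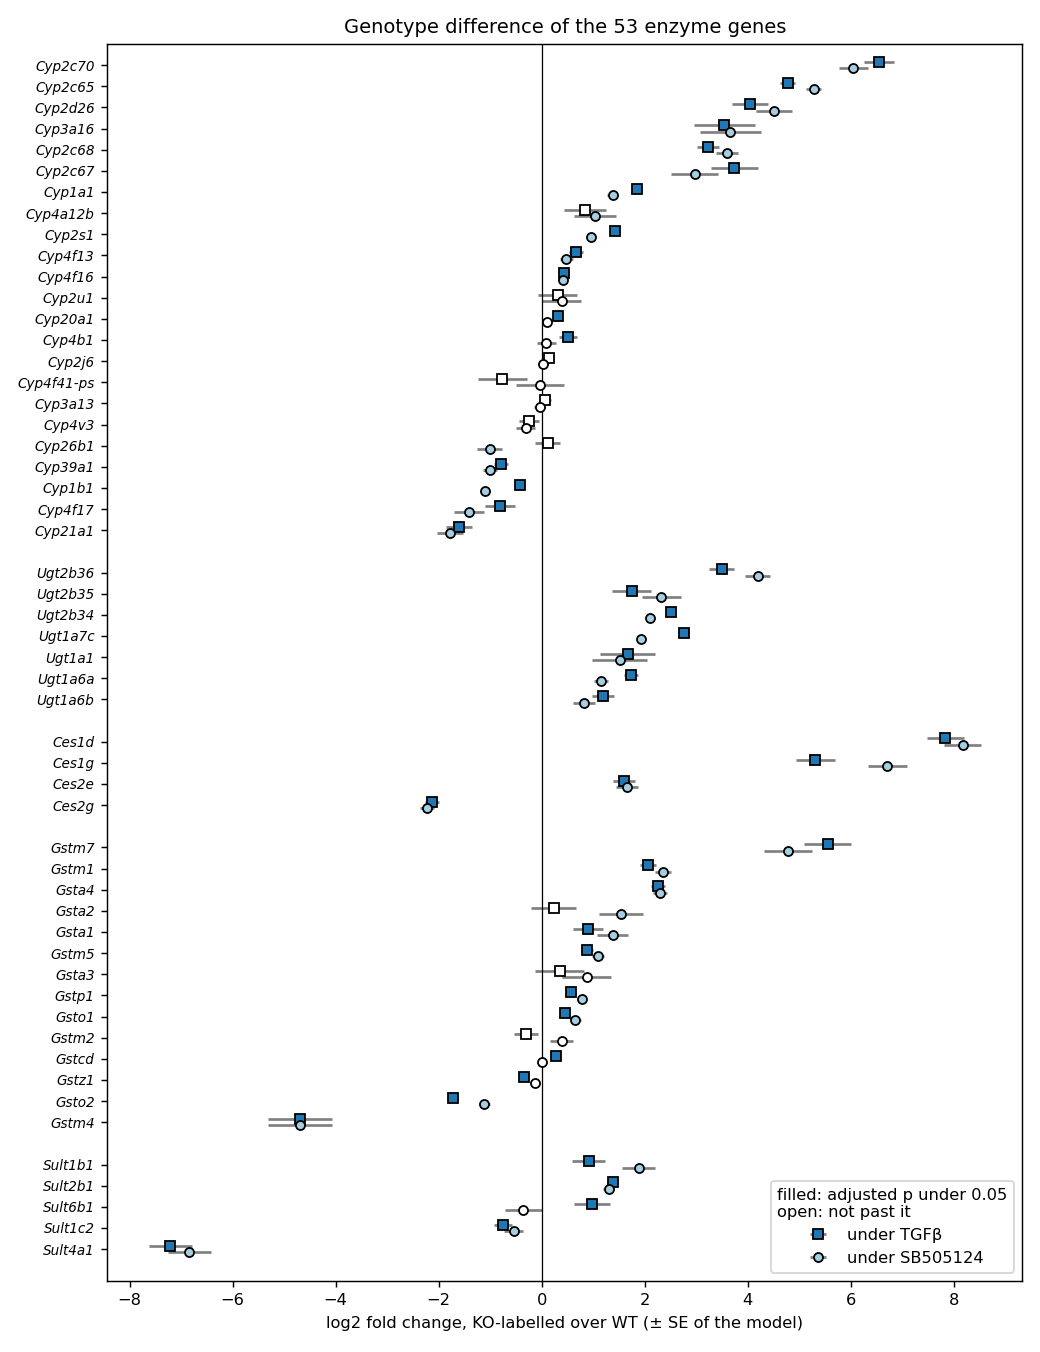
Log2 fold change of KO-labelled over WT cells (x axis) with the model's SE for each of the 53 enzyme genes (y axis, by family), under TGFβ (squares) and under SB505124 (circles); filled symbols passed an adjusted p of 0.05. All 7 Ugt genes lie right of 0, and the values of genes with 0 to 3 reads in a group depend on the added constant of 1.

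All 7 glucuronosyltransferases were higher in KO-labelled cells under both treatments, with medians of 1.75 under TGFβ and 1.93 under SB505124 on the log2 scale. Among all tested genes 32.7% were higher under TGFβ and 29.2% under SB505124. For Ugt1a1 and Ugt2b35, which reached the mean of 10 only in KO-labelled cells, this direction was fixed by the choice of genes, so the count and the medians are descriptions only. Ugt2b34, with the values given above, was 5.71-fold higher under TGFβ (2.51 ± 0.08, adjusted p = 6.1e-15) and 4.28-fold under SB505124 (2.10 ± 0.08, 8.0e-14). Ugt1a7c was 6.80-fold and 3.81-fold higher. Ugt2b36 had 137 and 141 normalised counts in KO-labelled cells under TGFβ, against 12.6 and 10.3 in WT cells, and 213 and 220.2 under SB505124, against 9.12 and 13.0 in WT cells. The smallest of the 7 changes were those of Ugt1a6b, 1.19 ± 0.21 under TGFβ and 0.82 ± 0.21 under SB505124. Ugt1a1 and Ugt1a6b share 80.2% and 79.8% of their windows with other genes, so their levels cannot be separated from the rest of that locus. Ugt1a6a shares 52.1%, mostly with Ugt1a7c. The exons of these 4 Ugt1a genes overlap, so their calls are not separate results. Ugt1a1 lost its call without WT TGFβ replicate 1 (adjusted p = 0.119) or KO-labelled TGFβ replicate 2 (0.198) under TGFβ. Under SB505124 it lost it without WT replicate 2 (adjusted p = 0.107), KO-labelled replicate 1 (0.0532) or KO-labelled replicate 2 (0.0788), and Ugt1a6b without KO-labelled SB505124 replicate 1 (0.0621).

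The carboxylesterases, which hydrolyse ester drugs and lipids, gave the widest contrasts. Ces1d and Ces1g reached the mean of 10 only in KO-labelled cells, so their direction was fixed by the choice of genes. Ces1d, a lipid droplet-associated hydrolase of mouse liver and fat, had 233 and 222 normalised counts under TGFβ in KO-labelled cells, against 0 and 0 in WT cells, and 280.1 and 294 under SB505124, against 0 and 0 in WT cells. With no read in any WT library, it was at least 139-fold higher under TGFβ and at least 190-fold higher under SB505124, taking 3 reads over the group as the limit. Ces1g had 156 and 171 under TGFβ in KO-labelled cells, against 4.21 and 2.29 in WT cells, and 145 and 150.3 under SB505124, against 1.01 and 0 in WT cells, the last resting on 1 read (ratio 293, exact 95% counting interval 52.3 to 1.16e+04). Ces2g stood on the other side. It had 80.9 and 86.1 under TGFβ in KO-labelled cells, against 386 and 352 in WT cells, and 85.6 and 88.1 under SB505124, against 416 and 407 in WT cells, and was 4.38-fold and 4.69-fold lower (adjusted p = 1.4e-10 and 7.2e-11). Its neighbour Ces2e was higher, by 1.60 ± 0.21 and 1.66 ± 0.21 on the log2 scale.

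**Figure D4:**
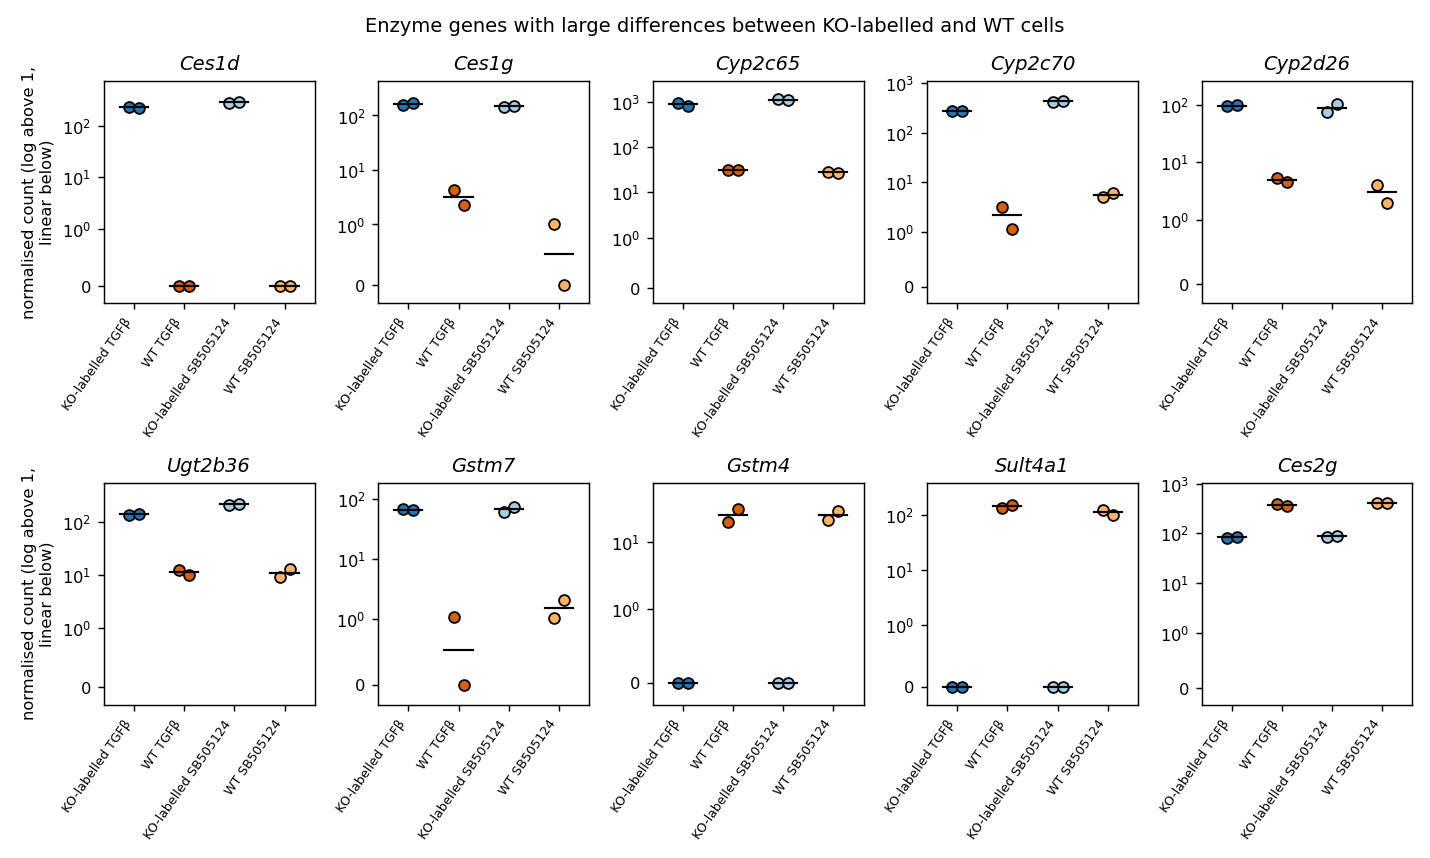
Normalised counts of 10 enzyme genes in the 8 libraries (y axis, logarithmic above 1 and linear below), by group on the x axis: circles are libraries and lines are group means (n = 2). The 10 genes were picked for large differences between the genotypes, so that their KO-labelled and WT libraries do not overlap follows from the pick. Ces1d is at 0 in all 4 WT libraries, and Gstm4 and Sult4a1 are at 0 in all 4 KO-labelled libraries. Ces1d, Ces1g, Cyp2c70, Cyp2d26 and Gstm7 reached the mean of 10 only in KO-labelled cells and Gstm4 and Sult4a1 only in WT cells. For these genes the direction was fixed by the choice of genes.

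Of the 23 cytochromes P450, 12 were higher and 4 lower in KO-labelled cells under TGFβ, and 11 were higher and 5 lower under SB505124. Among all tested genes 32.7% were higher and 30.2% lower under TGFβ, and 29.2% and 27.7% under SB505124. Cyp2c67, Cyp2c70, Cyp2d26, Cyp3a16 and Cyp4a12b reached the mean of 10 only in KO-labelled cells, so their direction was fixed by the choice of genes. The Cyp2c genes, a main drug-oxidising subfamily of liver and gut, led the list. Cyp2c65 had 953 and 785 normalised counts under TGFβ in KO-labelled cells, against 30.5 and 30.9 in WT cells, and 1139 and 1090.0 under SB505124, against 28.4 and 27.0 in WT cells. It was 27.3-fold higher under TGFβ (adjusted p = 3.2e-15) and 38.9-fold higher under SB505124 (6.6e-16). Cyp2c70, which in mouse makes muricholic acids, had 277 and 278 under TGFβ in KO-labelled cells, against 3.16 and 1.14 in WT cells, and 419.7 and 443 under SB505124, against 5.07 and 6.01 in WT cells. Cyp2d26, of the CYP2D drug oxidases, had 94.3 and 98.4 under TGFβ in KO-labelled cells, against 5.26 and 4.57 in WT cells, and 75.4 and 103 under SB505124, against 4.05 and 2.00 in WT cells. No WT library of these 3 genes came near a KO-labelled one. Of the windows of Cyp2c65, 20.6% also occur in other genes, mostly Cyp2c66. Cyp2c67 and Cyp2c68 were higher too, but 52.8% and 43.3% of their windows occur in other genes, mostly Cyp2c40.

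Among the more abundant P450 genes, Cyp1a1 was 3.60-fold higher in KO-labelled cells under TGFβ and 2.60-fold under SB505124 (adjusted p = 2.5e-11 and 1.8e-09), from the counts given above. Cyp2s1 had 3087 and 2825 normalised counts under TGFβ in KO-labelled cells, against 1202 and 1009 in WT cells, and 2886 and 3245 under SB505124, against 1575 and 1592 in WT cells. Lower calls under both treatments were those of Cyp1b1, Cyp21a1, Cyp39a1 and Cyp4f17. Cyp1b1 was -0.41 ± 0.09 under TGFβ and -1.10 ± 0.09 under SB505124, the opposite direction to Cyp1a1. Cyp39a1, an oxysterol hydroxylase of bile acid synthesis, was -0.80 ± 0.14 and -1.01 ± 0.14. Cyp4f17 was -0.81 ± 0.30 under TGFβ, where its adjusted p was 0.281 without WT TGFβ replicate 1 and 0.386 without KO-labelled TGFβ replicate 1, and -1.41 ± 0.30 under SB505124. Cyp20a1 had 2343 and 2220.5 under TGFβ in KO-labelled cells, against 1902 and 1751 in WT cells, a difference of 0.32 ± 0.08 (adjusted p = 0.0018). Under SB505124 it had 2146 and 2152 in KO-labelled cells, against 2066 and 1951 in WT cells (adjusted p = 0.31). Cyp26b1 was lower in KO-labelled cells under SB505124 (-1.01 ± 0.24, adjusted p = 0.0016) and did not pass under TGFβ (0.12 ± 0.24, 0.69).

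Of the 14 glutathione transferases, 8 were higher in KO-labelled cells under each treatment, with 3 lower under TGFβ and 2 under SB505124. Among all tested genes 32.7% were higher and 30.2% lower under TGFβ, and 29.2% and 27.7% under SB505124. Gsta4 had 5078 and 5465 normalised counts under TGFβ in KO-labelled cells, against 895 and 1362 in WT cells, and 6426 and 5963 under SB505124, against 1185 and 1343 in WT cells, which is 4.77-fold and 4.91-fold higher. The 2 most abundant genes of the family moved less. Gsto1 had 30185 and 32359 under TGFβ in KO-labelled cells, against 20766 and 25047 in WT cells, and 31459.9 and 30816 under SB505124, against 18386 and 21288 in WT cells (0.45 ± 0.10 and 0.65 ± 0.10). Gstp1 had 7933 and 7983 under TGFβ in KO-labelled cells, against 4940 and 5864 in WT cells, and 8533 and 8556 under SB505124, against 4682 and 5336 in WT cells (0.56 ± 0.09 and 0.77 ± 0.09). The mu-class genes Gstm1 and Gstm5 were 2.36 ± 0.15 and 1.10 ± 0.12 higher under SB505124. Within the mu class Gstm7 and Gstm4 went opposite ways. Gstm7 reached the mean of 10 only in KO-labelled cells and Gstm4 only in WT cells, so these directions were fixed by the choice of genes. Gstm7 had 66.4 and 65.6 under TGFβ in KO-labelled cells, against 1.05 and 0 in WT cells, and 59.6 and 74.3 under SB505124, against 1.01 and 2.00 in WT cells. From 133 against 1 reads under TGFβ the ratio was 121 (exact 95% counting interval 21.3 to 4.8e+03), and from 150 against 3 reads under SB505124 it was 44.5 (14.9 to 218). Gstm4 had 0 and 0 under TGFβ in KO-labelled cells, against 19.999 and 30.9 in WT cells, and 0 and 0 under SB505124, against 21.3 and 29.0 in WT cells. It was thus at least 16.9-fold lower under TGFβ and at least 18.7-fold lower under SB505124.

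The 5 sulfotransferases, which sulfate phenols, steroids and bile acids, were split. In KO-labelled cells 3 were higher and 2 lower under TGFβ and 2 higher and 2 lower under SB505124. Shares of all tested genes were 32.7% higher and 30.2% lower under TGFβ, and 29.2% and 27.7% under SB505124. Without KO-labelled TGFβ replicate 1 the higher calls under TGFβ came down to Sult2b1 alone, since Sult1b1 then had an adjusted p of 0.0965 and Sult6b1 of 0.0717. Sult1b1 also lost its call without WT TGFβ replicate 2 (adjusted p = 0.074), and Sult6b1 without WT TGFβ replicate 1 (0.165) or KO-labelled TGFβ replicate 2 (0.0744). Sult2b1, from the counts given above, was 1.38 ± 0.10 and 1.30 ± 0.10 higher. Sult4a1, an orphan sulfotransferase known from brain, had 0 and 0 normalised counts under TGFβ in KO-labelled cells, against 138 and 157 in WT cells, and 0 and 0 under SB505124, against 125 and 103 in WT cells. It was at least 98.6-fold lower under TGFβ and at least 84.7-fold lower under SB505124. Since Sult4a1 reached the mean of 10 only in WT cells, this direction was fixed by the choice of genes. Sult1c2 had 107 and 99.4 under TGFβ in KO-labelled cells, against 149 and 203 in WT cells (-0.75 ± 0.18, adjusted p = 0.0014). Under SB505124 Sult1c2 had 173 and 127 in KO-labelled cells, against 194 and 241 in WT cells (-0.54 ± 0.18, adjusted p = 0.016), with an adjusted p of 0.181 without WT SB505124 replicate 2 and 0.191 without KO-labelled SB505124 replicate 2.

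Of the 53 genes, 34 lie in 11 groups in which neighbouring members are at most 1 Mb apart (GENCODE M21 coordinates, GRCm38). In some groups all members had the same call, and in others they did not. Cyp2c67, Cyp2c70, Cyp4a12b, Ces1d, Ces1g, Ugt1a1 and Ugt2b35 reached the mean of 10 only in KO-labelled cells, so their part in these counts was fixed by the choice of genes. At chr19:39061015-40187333 all 4 members (Cyp2c65, Cyp2c67, Cyp2c68 and Cyp2c70) were higher in KO-labelled cells under SB505124, whereas 16 other tested genes within 1 Mb included 5 higher and 5 lower calls. At chr1:88095062-88220002 all 4 Ugt1a members, whose exons overlap, were higher, beside 6 higher and 4 lower calls among 16 neighbours. At chr5:86889767-87538195 Ugt2b34, Ugt2b35, Ugt2b36 and Sult1b1 were all higher, beside 1 higher and 0 lower calls among 5 neighbours. At chr8:93166068-93337308 Ces1d and Ces1g were higher, beside 0 higher and 5 lower calls among 10 neighbours. Gsta4, Gsta1 and Gsta2 lie at chr9:78182774-78355788, and 90.5% and 49.8% of the windows of Gsta1 and Gsta2 also occur in other genes. Gsta2 did not pass under TGFβ (limma adjusted p = 0.656). Under SB505124 all 3 genes were higher, and so were 6 of 12 neighbours with 1 lower (median 0.40). Gsta2 had an adjusted p of 0.0964 there without WT SB505124 replicate 1. The Gstm group at chr3:107895821-108044894 was mixed, with 3 higher and 1 lower of 5 members. Its Gstm7 reached the mean of 10 only in KO-labelled cells and its Gstm4 only in WT cells. Their opposite directions were thus fixed by the choice of genes. The other groups did not share a call under SB505124 either. The Cyp4f group had 2 higher and 1 lower of 4 members. Gsto1 was higher and Gsto2 lower, and Ces2e was higher and Ces2g lower. Of the neighbours Cyp4a12b and Cyp4b1 only Cyp4a12b was called, as higher. Of Sult6b1 and Cyp1b1 only Cyp1b1 was called, as lower. Chromosomes 4 and 14 stood apart from the others, with medians over all their tested genes of -0.69 and -0.62 in KO-labelled against WT cells under SB505124. They hold 3 and 0 of the 53 genes.

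Genes that serve the same reactions are read beside the shares of all tested genes called between the genotypes, 62.9% under TGFβ and 56.9% under SB505124. Of 24 tested electron donors and other oxidation enzymes, 13 were higher and 6 lower in KO-labelled cells under TGFβ and 14 higher and 6 lower under SB505124, with median log2 fold changes of 0.45 and 0.44. These calls are 79.2% and 83.3% of the list. Aldh1a1, the retinaldehyde dehydrogenase, had 22053 and 22430.4 normalised counts under TGFβ in KO-labelled cells, against 3188 and 4501 in WT cells (2.55 ± 0.12, adjusted p = 3.0e-12). The epoxide hydrolase genes Ephx2 and Ephx1 were 2.00 ± 0.11 and 1.50 ± 0.08 higher under TGFβ. Of 13 tested carriers, 8 were higher and 0 lower under TGFβ and 6 higher and 1 lower under SB505124 (medians 0.33 and 0.33). In either direction 61.5% and 53.8% were called, near the shares of all genes. The higher calls were 61.5% and 46.2%, against 32.7% and 29.2% of all tested genes. The lower calls were 0% and 7.69%, against 30.2% and 27.7%. Abcc2, which exports glucuronide and glutathione conjugates, had 1263 and 1096 under TGFβ in KO-labelled cells, against 31.6 and 35.4 in WT cells, and 1629 and 1467 under SB505124, against 61.8 and 52.1 in WT cells (5.09 ± 0.14 and 4.74 ± 0.14). The drug exporter gene Abcb1b was 2.36 ± 0.09 and 2.21 ± 0.09 higher.

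Of 15 tested genes of cofactor supply and other conjugation, 9 were higher and 4 lower under TGFβ and 9 higher and 3 lower under SB505124, with medians of 0.43 and 0.47, or 86.7% and 80% called. Papss2, which makes the sulfate donor, was 1.49 ± 0.13 and 1.54 ± 0.13 higher. Of 19 tested NRF2 targets, 8 were higher and 7 lower under TGFβ and 9 higher and 7 lower under SB505124 (medians 0.06 and 0.16), or 78.9% and 84.2% called, with Hmox1 at 1.52 ± 0.08 and 1.51 ± 0.08 and Osgin1 at -1.34 ± 0.08 and -1.16 ± 0.08. Of 13 nuclear receptors and related factors, 5 were higher and 2 lower under TGFβ and 3 higher and 3 lower under SB505124 (medians 0.04 and -0.10), and at 53.8% and 46.2% called they lay below the shares of all genes. Hnf4a, a driver of hepatocyte and intestinal genes, had 15242 and 14876 normalised counts under TGFβ in KO-labelled cells, against 4287 and 4647 in WT cells, and 12042 and 12025 under SB505124, against 4562 and 4783 in WT cells (1.75 ± 0.08 and 1.36 ± 0.08). In the AHR axis, 2 of 8 tested genes were higher and 4 lower under TGFβ and 1 higher and 3 lower under SB505124 (medians -0.29 and 0.01), or 75% and 50% called. Arnt2, an ARNT paralogue, was 4.46 ± 0.14 and 4.67 ± 0.14, and Aldh3a1, an aldehyde dehydrogenase, was -4.91 ± 0.27 and -5.27 ± 0.27. Of the 20 retinoid and steroid handling genes, 10 were higher and 5 lower under each treatment (medians 0.35 and 0.20), or 75% called, with Stra6, the retinol-binding protein receptor gene, at 2.86 ± 0.13 and 2.71 ± 0.13.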

How the data were processed

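Values in the deposited table are a signal per gene and library that the authors made as read counts over size factors. The submitters' processing notes name FastQC 0.11.5, HTSeq 0.6.1p1, DESeq2 3.4 and mm10, and the aligner is not given in the sources used here. The kit in the labels' protocols (TruSeq RNA v2) does not mark the strand. All values were whole multiples of 1 step per library within 0.01 reads, which gave back the reads (25144204 to 32143113 per library) for count tests used as alternatives. The 12498 genes with a mean of at least 10 were tested on log2(value + 1), a scale that understates changes of low genes. A limma 3.58.1 model (R 4.3.3, variance trend) of the 4 group means over all 8 libraries gave 5 contrasts, with Benjamini-Hochberg adjustment over all tested genes and a threshold of 0.05. The procedure was tested on simulated data.

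Log2 fold changes carry the model's SE. Bounds assume 3 reads over a group, and bounds and intervals cover counting error only. Coordinates are from GENCODE M21 and promoters from RefSeq. Per-library values are given for Cyp1a1, Cyp1b1, up to 8 of the largest called changes per comparison and the 2 most abundant members per family. Values of other members, such as Gsta4, Ugt2b36 and Cyp2j6, were picked after they were seen. The 53 genes and all lists were chosen with earlier results of these data known, so their counts are descriptions. Alternatives changed the added constant, the filter, the scaling, the variance trend, the libraries and the test (edgeR 4.0.16, DESeq2 1.42.0).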

Additional observations from a re-analysis of the deposited data

Results flagged for a closer look

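Among the 53 enzyme genes, 3 were set aside because their TGFβ response differed between the genotypes in a test of that difference (limma, adjusted over all tested genes, n = 2 libraries per group). The difference, KO-labelled minus WT, was 0.84 on the log2 scale for Ugt1a7c (adjusted p = 4.5e-04), 0.69 for Cyp1b1 (0.0032) and -0.61 for Gsto2 (0.035). In each of the 3 genes the 2 treatments did not overlap in WT cells, and they did not overlap in KO-labelled cells either. How many of all genes separate in this way was not counted. The difference kept its direction in every alternative for all 3, but passed the threshold in all of them for Ugt1a7c alone.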

How the results depend on the processing

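No call of any of the 53 genes changed direction in any alternative. Of the calls, 11 of 17 (TGFβ in WT cells), 6 of 10 (TGFβ in KO-labelled cells), 35 of 41 (KO-labelled against WT under SB505124), 35 of 43 (under TGFβ) and 1 of 3 (difference of responses) were kept in all alternatives that could be computed. Leaving out 1 library at a time gave 14 to 21 calls for TGFβ in WT cells and 6 to 14 in KO-labelled cells, the 6 without KO-labelled TGFβ replicate 2. It gave 37 to 41 calls for KO-labelled against WT under SB505124, 37 to 43 under TGFβ and 1 to 7 for the difference of responses, with 1 without WT SB505124 replicate 1 and 7 without WT TGFβ replicate 1. The difference of responses had 5 calls with TMM scaling, 5 with DESeq2 and 1 without the variance trend, against 3. In fits that left a group with 1 library, that library is assumed to vary like the others.

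Replicate numbers are shared between groups, but nothing says that they pair samples. Deviations of same-numbered libraries correlated at 0.20 between the WT groups and 0.10 between the KO-labelled groups, and at -0.05 and -0.03 between genotypes under SB505124 and TGFβ. With the replicate block there were 17, 9, 41, 42 and 2 calls in the 5 comparisons, in the order above. The cause of the changes was not tested.

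Depth limits genes with few reads: Ces1d, Ces1g, Cyp3a16, Gstm4, Gstm7 and Sult4a1 have 0 to 3 reads in at least 1 group, and their fitted fold changes depend on the added constant.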
